A study of Drosophila melanogaster with 399 samples.

Results

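The embryos described here came from a cross that expressed a short hairpin RNA against scarecrow (scro). They make up 4 of the 399 whole-embryo RNA-seq libraries of a resource in which 45 transcription factors (TFs) were each knocked down by RNAi. Members were chosen by their titles, which give scro, the window and a biosample number. There were 2 scro RNAi libraries at 12–14 hours after egg lay (AEL), the window picked for scro, and 2 at 16–18 hours AEL. Each pair was compared with the 2 libraries of the same window from the control cross whose title names onecut, scro and ss.

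In scro RNAi crosses, mothers homozygous for daughterless-Gal4 (da-Gal4) insertions on 2 chromosomes were mated to males homozygous for a UAS hairpin transgene against scro in the VALIUM20 vector. Fathers of the control cross carried a hairpin against mCherry, a fluorescent protein gene that flies lack. Embryos of both crosses therefore had 2 driver insertions, 1 hairpin transgene and an active RNAi machinery. The driver is active in all cells, from maternal and from zygotic expression, so no tissue was singled out. The knockdown rests on 1 hairpin line, so an effect of the target and an effect of the line cannot be told apart. Each library is a pool of whole embryos, in which fewer cells of a type and less RNA per cell cannot be told apart either. The hairpin is shown because it defines the knockdown, and it is written in lower case throughout because the sources mark no part of it.
scro hairpin: tagcacaaagaagaaagcgaa
These 21 bases hold 8 G or C. The strand on which they read was not stated. The target, scro (FBgn0287186), is a protein-coding gene on the plus strand of dm6 at 3L:24724162-24758036.

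scro encodes a homeodomain TF of the NK2 class, a family of DNA-binding proteins that specify cell fates in the nervous system, heart and gut. Neurons of the late embryo turn on the genes of their ion channels, transmitter enzymes and synapses as they mature, while cell cycle genes are supplied to the egg by the mother and remain in use where cells divide.

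The 8 libraries held 45198418 to 83885159 reads on genes, within a series range of 13148430 to 167412388. Replicates of a group correlated across genes at r = 0.960 to 0.986 on log2 CPM, and no 2 of the 8 libraries were identical. CPM are read counts relative to library size, scaled by the trimmed mean of M values (TMM). At 12–14 hours the TMM factors were 0.870 and 0.880 in scro RNAi libraries and 1.10 and 1.19 in controls, so the makeup of the RNA differed between the arms.

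The transcript of scro itself did not pass the test in either window. At 12–14 hours it stood at 16.0 and 9.37 CPM in scro RNAi embryos, against 15.5 and 12.6 CPM in controls (log2 fold change −0.14 ± 0.30 SE, adjusted p = 0.737 by edgeR's quasi-likelihood test). One scro RNAi library was above both controls and the other was below both. At 16–18 hours scro had 9.18 and 5.97 CPM in scro RNAi embryos and 11.8 and 9.60 CPM in controls (log2 fold change −0.50 ± 0.27 SE, adjusted p = 0.868 by edgeR). Here both knockdown libraries were below both controls. On a scale set over all libraries of the series, scro levels of 12.4 and 7.04 CPM at 12–14 hours lay among or below those of the 10 controls of that window, which spanned 11.2 to 20.7 CPM with a median of 14.4. The levels of 9.08 and 6.24 CPM at 16–18 hours lay inside the range of the 42 controls of that window, 6.05 to 18.8 CPM, with 3 and 1 of them lower. The directions below are therefore those of libraries labelled scro RNAi, in which a lower scro transcript was not shown.

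Of the other NK homeobox genes, relatives of scro, none was called. All 11 tested members of that list, scro included, stayed under the threshold in both windows, with a median log2 fold change of −0.21 at 12–14 hours and −0.08 at 16–18 hours. The nearest relative on the list, ventral nervous system defective (vnd), an NK2 gene that patterns the ventral nerve cord, had 8.25 and 12.8 CPM in scro RNAi embryos and 10.9 and 12.4 CPM in controls at 12–14 hours, groups that overlapped.

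At 12–14 hours, 3981 of 11305 genes tested changed (35.2%), called at an adjusted p up to 0.1 and a log2 fold change of 0.5 or more in size. Of these, 1437 fell (12.7%) and 2544 rose (22.5%), and the median over all genes was −0.17 on the log2 scale. The balance of the 2 directions depended on the scaling. With relative log expression (RLE) factors 460 genes fell (4.07%) and 2598 rose (85.0% of calls higher, against 63.9%), with DESeq2 688 fell (6.3%) and 2777 rose (80.1% of calls higher), and with library totals alone 4857 fell (43.0%) and 1935 rose (28.5% of calls higher). The median of all genes moved to −0.06 with RLE factors and to −0.56 with totals alone. Of the 2544 genes that rose, 1237 were also called higher under each of 13 other settings, namely other scalings, filters, tools, designs and controls and each library left out. The same held for 12 of the 1437 genes that fell. Without scro RNAi replicate 2 the genes that fell numbered 151 (1.28%), without control replicate 2 they numbered 165 (1.41%), without control replicate 1 they numbered 743 (6.5%) and without scro RNAi replicate 1 they numbered 1015 (8.81%). In 1 fit with onecut and ss RNAi libraries added they were 928 (7.93%).

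**Figure D1:**
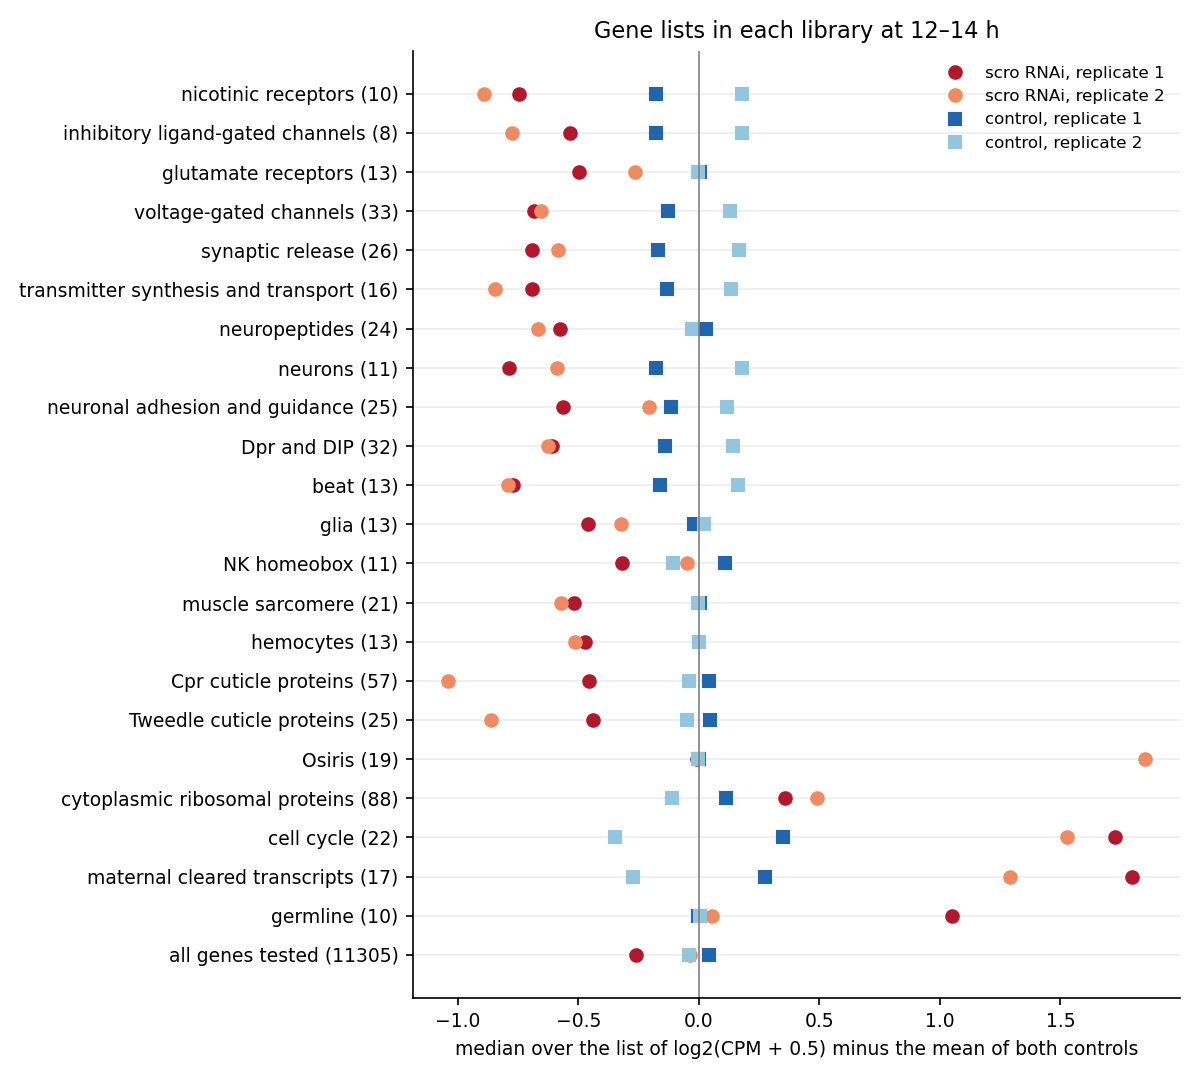
Median over each gene list of log2(CPM + 0.5) in each library at 12–14 hours, minus the mean of both controls, with the number of tested genes in brackets and the 2 scro RNAi libraries in red and orange. In both scro RNAi libraries the neuronal lists lie left of both controls and the cell cycle and maternal lists lie right, while for Osiris genes 1 scro RNAi library stands at 1.85 and the other at −0.01 on the log2 scale, on top of the controls.

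Many genes of neurons were lower in scro RNAi embryos. The 11 lists of neuronal genes held 209 tested genes, of which 116 fell (55.5%) and 6 rose, with a median log2 fold change of −0.65. The median was −0.53 with RLE factors and −1.05 with totals alone, each below the median of all genes on the same scale. Some of these genes, the nicotinic receptors among them, were singled out by the study from these same libraries, and the lists are no independent evidence of their direction. The count of 116 was 46 with RLE factors, 42 without scro RNAi replicate 1, 2 without scro RNAi replicate 2 and 6 without control replicate 2, and the counts of the single neuronal lists below moved with it.

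Nicotinic acetylcholine receptors are the ion channels through which acetylcholine excites neurons of the insect brain and nerve cord, and each channel is assembled from subunits of 1 gene family. Of the 10 subunit genes 8 fell and 1 rose at 12–14 hours. nAChRalpha1 had 14.7 and 14.4 CPM in scro RNAi embryos, against 23.03 and 46.4 CPM in controls (log2 fold change −1.25 ± 0.34 SE, adjusted p = 0.0507 by edgeR). nAChRalpha7 had 7.65 and 7.60 CPM in scro RNAi embryos and 13.2 and 22.0 CPM in controls (−1.21 ± 0.28 SE, adjusted p = 0.0386 by edgeR). For both genes the 2 knockdown libraries were close together while control replicate 2 stood well above control replicate 1.

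nAChRalpha3 had 3.36 and 2.30 CPM in scro RNAi embryos, against 5.35 and 7.71 CPM in controls, a log2 fold change of −1.20. nAChRalpha6 had 32.0 and 22.4 CPM in scro RNAi embryos and 46.1 and 67.2 CPM in controls (−1.06). nAChRalpha5 had 22.4 and 17.2 CPM in scro RNAi embryos and 31.8 and 49.3 CPM in controls (−1.03). In each of these subunits both knockdown libraries lay below both controls. The decreases of nAChRbeta1, nAChRalpha2 and nAChRbeta2 were smaller, at −0.69, −0.57 and −0.55 on the log2 scale. For nAChRbeta1 the values were 47.3 and 48.7 CPM in scro RNAi embryos and 71.5 and 84.0 CPM in controls.

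The subunit genes did not all move the same way. nAChRalpha4 had 87.0 and 73.1 CPM in scro RNAi embryos, against 46.2 and 49.0 CPM in controls, and rose by 0.75 on the log2 scale (SE 0.19, adjusted p = 0.0438 by edgeR). nAChRbeta3 had 7.93 and 5.40 CPM in scro RNAi embryos and 8.33 and 9.23 CPM in controls, and did not pass the test (adjusted p = 0.280 by edgeR). Of the 10 genes, 3 were called lower with RLE factors, 2 without scro RNAi replicate 1 and 0 without scro RNAi replicate 2 or without control replicate 2.

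**Figure D2:**
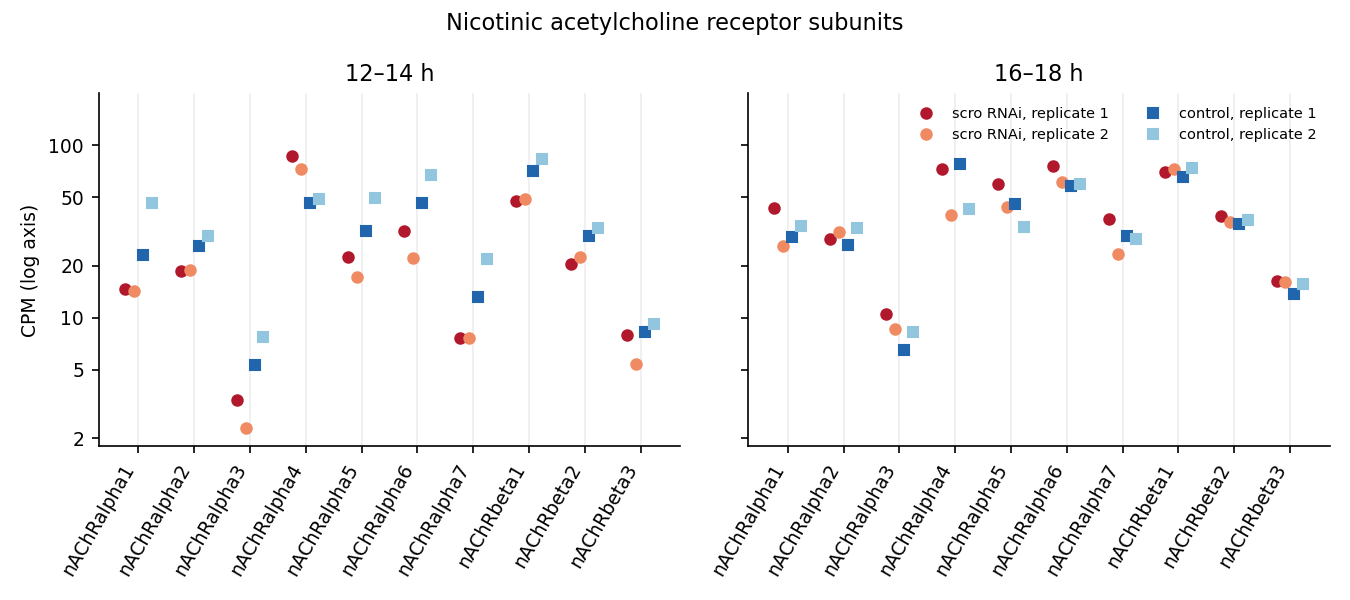
CPM of the nicotinic receptor subunit genes in each library at 12–14 hours and 16–18 hours, on log axes, with scro RNAi left of control. At 12–14 hours nAChRalpha4 is the only subunit gene with both scro RNAi points above both control points, and at 16–18 hours none of the 10 genes was called.

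Channels that inhibit neurons fell as well. Of 8 tested genes of inhibitory ligand-gated channels 4 fell, none rose, and the median was −0.85. Rdl, the receptor subunit for the inhibitory transmitter GABA, had 40.2 and 28.9 CPM in scro RNAi embryos, against 65.0 and 103 CPM in controls (log2 fold change −1.28 ± 0.30 SE, adjusted p = 0.0389 by edgeR). The glutamate-gated chloride channel GluClalpha had 26.2 and 27.0 CPM in scro RNAi embryos and 44.5 and 62.7 CPM in controls (−1.01). pHCl-1, a pH-sensitive chloride channel, and Lcch3, another subunit of the GABA receptor family, changed by −1.34 and −0.59. Among 13 genes of glutamate receptors 5 fell (38.5%, against 12.7% of all genes) and none rose. They included Nmdar1 and Nmdar2, the subunits of the NMDA receptor, at −0.69 each, and GluRIIA, a subunit of the receptor on muscle, at −0.55.

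Voltage-gated channels, which carry the action potential and trigger release, showed the same direction. Of 33 genes 22 fell (66.7%) and none rose, with a median of −0.67. para, the voltage-gated sodium channel, had 39.5 and 27.7 CPM in scro RNAi embryos, against 59.995 and 91.2 CPM in controls (log2 fold change −1.17 ± 0.29 SE, adjusted p = 0.0420 by edgeR). Sh, the Shaker potassium channel, had 26.0 and 26.8 CPM in scro RNAi embryos and 46.6 and 66.9 CPM in controls (−1.10 ± 0.23 SE, adjusted p = 0.0376 by edgeR). Teh1, a subunit that assists the sodium channel, the presynaptic calcium channel cac and the calcium-activated potassium channel slo changed by −1.09, −0.99 and −0.77.

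Of 26 genes of synaptic release 17 fell and 2 rose. cpx, which encodes the clamp protein complexin, had 101 and 89.1 CPM in scro RNAi embryos, against 162 and 275 CPM in controls (−1.20). Snap25, a member of the complex that fuses vesicles, had 3.99 and 4.17 CPM in scro RNAi embryos and 8.89 and 9.55 CPM in controls (−1.18). Replicates of Snap25 agreed closely and its groups lay apart. The calcium sensor Syt1, the vesicle protein nSyb and the active zone protein brp changed by −0.90, −0.80 and −0.65. The 2 genes that rose have roles outside synapses too. Csp, a chaperone of secretory vesicles, had 503 and 450 CPM in scro RNAi embryos and 284 and 195 CPM in controls (0.99). Syx1A, a syntaxin of the plasma membrane that embryos also use to form cells, had 99.3 and 100 CPM in scro RNAi embryos and 64.5 and 60.1 CPM in controls (0.68).

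Genes of transmitter synthesis and transport had a median of −0.88, and 10 of 16 fell. For acetylcholine, the enzyme ChAT had 11.4 and 10.6 CPM in scro RNAi embryos, against 19.2 and 23.8 CPM in controls (−0.96). The choline transporter ChT had 5.96 and 5.57 CPM in scro RNAi embryos and 9.83 and 23.9 CPM in controls (−1.54), and the vesicle transporter VAChT changed by −1.04. Genes of other transmitters fell too: Gad1, which makes GABA, changed by −0.99, and VGlut and Vmat, which load glutamate and monoamines into vesicles, by −0.92 and −0.93. Of 24 genes of neuropeptides and their processing 12 fell and 1 rose. The peptide genes Dh44 and NPF changed by −1.32 and −1.03 and the processing protease amon by −0.66. The gene that rose was svr, a carboxypeptidase also used in the cuticle, with 347 and 333 CPM in scro RNAi embryos and 212 and 181 CPM in controls (0.79).

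General markers of neurons followed. Of 11 genes 8 fell and none rose. jeb, a secreted ligand, had 5.02 and 4.77 CPM in scro RNAi embryos, against 9.87 and 14.2 CPM in controls (−1.30). The sodium pump subunit nrv3 and the RNA-binding protein fne changed by −1.07 and −0.79. elav, the RNA-binding protein used most often to mark neurons, had 24.4 and 38.8 CPM in scro RNAi embryos and 40.4 and 53.6 CPM in controls and did not pass the test (adjusted p = 0.189 by edgeR). Cell surface proteins of the Dpr and DIP families, which pair neurons with their partners, fell in 18 of 32 genes, among them dpr14 and dpr9 at −1.26 and −1.25 and DIP-zeta and DIP-theta at −0.91 and −0.87. Of 13 beat genes, which encode immunoglobulin proteins of axon guidance, 9 fell, led by beat-VII at −1.28 and beat-IIIb at −1.11. Among 25 other genes of neuronal adhesion and guidance 5 fell, including Nrx-1, Nlg3 and tutl at −0.71, −0.98 and −0.77. Here 2 guidance receptors rose: PlexA, the semaphorin receptor, had 574 and 525 CPM in scro RNAi embryos and 272 and 244 CPM in controls (1.09), and the netrin receptor fra changed by 0.57.

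Markers of other cells of the nervous system were less uniform. Of 13 glial genes 5 fell (38.5%) and 1 rose (7.69%). Gat and Gs2, which clear transmitter, changed by −0.88 and −0.86, and loco rose by 0.84. repo, the homeodomain TF that defines glia, had 18.8 and 28.2 CPM in scro RNAi embryos and 23.3 and 26.4 CPM in controls, groups that overlapped. Of 15 genes of neuroblasts and their temporal factors 2 fell (13.3%) and 2 rose (13.3%). Of all genes 12.7% fell and 22.5% rose, so these calls do not set the list apart. brat, a repressor of growth that is also a maternal RNA, had 941 and 835 CPM in scro RNAi embryos, against 371 and 222 CPM in controls (1.58). hb, a temporal factor with a maternal RNA of its own, had 35.8 and 26.3 CPM in scro RNAi embryos and 12.0 and 8.82 CPM in controls (1.57). Of lists for the head and the gut, 1 of 14 optic lobe and head genes (7.14%) and 3 of 13 foregut and hindgut regulators (23.1%) fell, and none rose. With 12.7% of all genes lower, these few calls do not set the lists apart.

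Several tissues outside the nervous system had lower levels too. Of 21 sarcomere genes of muscle 10 fell (47.6%, against 12.7% of all genes) and none rose, with a median of −0.55. The myofilament genes Mf and bt changed by −0.99 and −0.77, while Mhc, the muscle myosin heavy chain, had 4543 and 4550 CPM in scro RNAi embryos and 5920 and 5823 CPM in controls and did not pass the test (adjusted p = 0.159 by edgeR). Of 13 hemocyte genes 6 fell (46.2%), among them Hml, Sr-CI, PPO1 and Col4a1 at −1.32, −1.27, −0.82 and −0.52. Structural proteins of the cuticle fell in 16 of 57 genes of the Cpr family (28.1%) and 6 of 25 of the Tweedle family (24.0%). These counts are those of the main fit, and with RLE factors the share of all genes lower was 4.07%. Cpr56F had 192 and 136 CPM in scro RNAi embryos, against 461 and 473 CPM in controls (−1.51), and TwdlE had 76.7 and 75.9 CPM in scro RNAi embryos and 147 and 173 CPM in controls (−1.07).

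Cell cycle genes moved in the opposite direction. Of 22 genes 18 rose (81.8%, against 22.5% of all genes) and none fell. The median was 1.60, or 1.73 with RLE factors and 1.23 with totals alone. CycB, a mitotic cyclin, had 5103 and 4362 CPM in scro RNAi embryos, against 1644 and 756 CPM in controls (log2 fold change 1.98 ± 0.39 SE, adjusted p = 0.0376 by edgeR). The other mitotic cyclin CycA had 1124 and 941 CPM in scro RNAi embryos and 399 and 191 CPM in controls (1.81). The mitotic kinase aurA, the replication genes Orc1 and Mcm7 and the mitotic phosphatase stg changed by 1.95, 1.93, 1.79 and 0.97. fzr, which takes cells out of the cycle, did not pass the test, with 17.4 and 20.01 CPM in scro RNAi embryos and 20.7 and 26.1 CPM in controls.

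Transcripts that the mother lays down and that are cleared in early development also rose, in 9 of 17 genes (52.9%) with a median of 1.65. Among all genes 22.5% rose in this comparison. smg, a regulator of that clearance, had 3810 and 3365 CPM in scro RNAi embryos, against 1410 and 716 CPM in controls (1.76). bcd, the anterior determinant, had 298 and 258 CPM in scro RNAi embryos and 113 and 73.6 CPM in controls (1.57). twe and swa, which serve meiosis and bcd localization, and the cyclin CycB3 changed by 1.65, 1.66 and 1.79. Of 10 germline genes 4 rose (40.0%), including aub and piwi, which silence transposons, at 1.71 and 1.14, and bam, a germline differentiation factor, at 2.08. Of 7 tested genes of the first zygotic transcription 1 rose (14.3%), slam, which builds the first cell membranes of the embryo (1.804), and 1 fell (14.3%). With 22.5% of all genes higher and 12.7% lower, these calls do not set that list apart. Over the 3 lists together 30 of 47 tested genes rose, and this count was 15 against all 10 mCherry controls of the window and 11 against the 8 from other sets. Among all genes 18.6% rose and 3.48% fell against all mCherry controls, and 16.6% rose and 3.22% fell against those of other sets.

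Within the control pair, replicate 2 had less of these transcripts than replicate 1 in both windows. The summed level of the 22 cell cycle genes was 11111 and 9527 CPM in scro RNAi embryos and 3920 and 2001 CPM in controls at 12–14 hours. In the later window the sums were 4586 and 3844 CPM in scro RNAi embryos and 4517 and 1891 CPM in controls. The gap between the controls was smaller than the gap between the arms at 12–14 hours, and at 16–18 hours it exceeded it.

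Part of the genes of protein synthesis and turnover rose, where 22.5% of all genes did. Of 88 cytoplasmic ribosomal protein genes 32 rose (36.4%) and 1 fell, with a median of 0.40. RpS14b had 422 and 399 CPM in scro RNAi embryos, against 206 and 151 CPM in controls (1.198), and RpL3 changed by 0.51. The gene that fell, RpL22-like, is a germline paralog, at −1.01. Of 33 proteasome genes 11 rose (33.3%) and none fell, with a median of 0.15. Prosbeta3, Prosbeta7 and Rpt4, parts of the core and the cap of the particle, changed by 1.46, 1.46 and 1.41.

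Set among all 35 libraries of the 12–14 hour window, both scro RNAi libraries were at the end of the scales of the neuronal genes and of CycB, but not of the cell cycle genes as a list. On the scale set over the series, the median of the neuronal genes was 3.55 and 3.57 log2 units in scro RNAi embryos, below all 33 other libraries, and 4.41 and 4.99 in the controls of the set. This scale puts both scro RNAi libraries lower, relative to those controls, than the scale of the comparison does, so low ranks depend on the scaling. On it scro RNAi replicate 1 was also below all 33 others for the genes that fall with age, at 2.99 log2 units. CycB stood at 3940 and 3277 CPM in scro RNAi embryos, above all 33 others, and at 1598 and 869 CPM in the controls of the set. The median of the 22 cell cycle genes was 5.77 and 5.69 log2 units in scro RNAi embryos, with 24 of the 33 others below and 9 above, 2 of the 10 controls among them. The nearest controls were the 2 libraries of the zfh2, Sox102F and Hr3 set, with neuronal medians of 3.81 and 3.75 and CycB at 2382 and 2350 CPM. These 2 libraries also kept transcripts of the egg, at 17.2% and 19.0% of their level in 0–1.5 hour controls. In scro RNAi embryos that share, a median over genes, was 3.76% and 3.67%, below all 10 controls of the window. In the controls of the set it was 4.17% and 4.245%. In the comparison with the controls of the set, however, 99 of 272 tested transcripts of the egg rose (36.4%, against 22.5% of all genes). Only 1 fell, and the median log2 fold change was 0.58. Their summed level was 4402 and 3527 CPM in scro RNAi embryos and 2230 and 1688 CPM in those controls. The direction of the egg transcripts against the controls of the set thus depended on the scale and measure used.

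**Figure D3:**
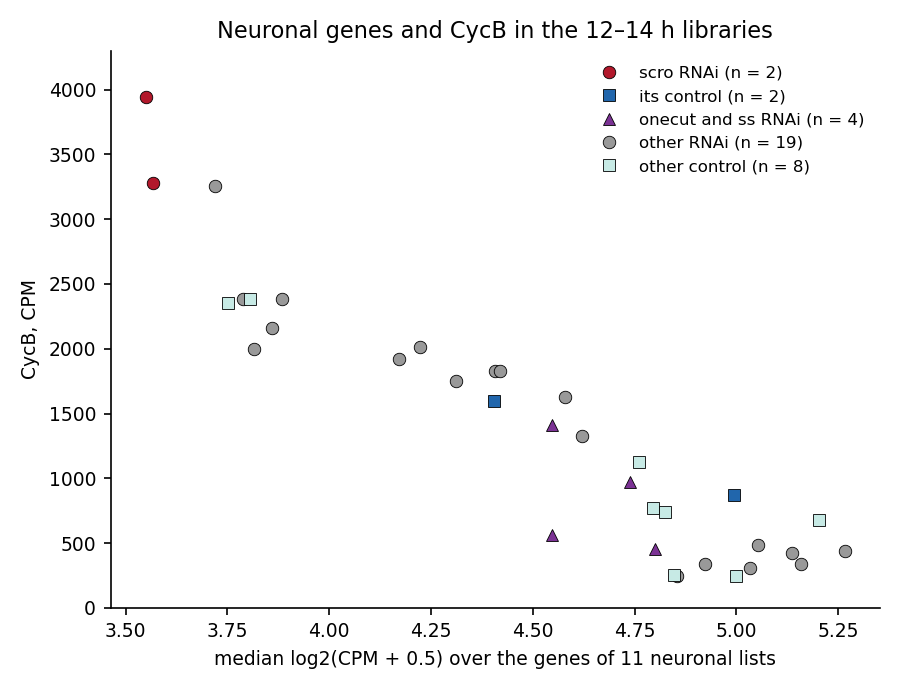
Median log2 level of the neuronal genes (horizontal) and CPM of CycB on a linear axis (vertical), for each library at 12–14 hours on the scale set over the series. The 2 scro RNAi libraries are at the upper left, at 3.55 and 3.57 and at 3940 and 3277 CPM.

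Genes that change with the age of embryos were followed as well. They were sorted by their change between 10–12 hours and 16–18 hours in mCherry controls of other sets. Of 2608 tested genes that rise with age 917 fell in scro RNAi embryos (35.2%, against 12.7% of all genes) and 32 rose, with a median of −0.66. Of 1548 tested genes that fall with age 209 rose (13.5%) and 56 fell, with a median of −0.03, while among all genes 22.5% rose. The median level of the rising genes was 2.28 and 2.02 log2 units in scro RNAi embryos and 3.15 and 3.35 in the controls of the set. For the falling genes it was 2.99 and 3.59 in scro RNAi embryos and 3.48 and 3.69 in those controls. For the rising genes both scro RNAi values lay under both control values, and for the falling genes the groups overlapped. Collections are 2 hours wide, no label gives the stage of the embryos, and the part of age in these results was not tested. The count of 917 was 313 with RLE factors, 101 without scro RNAi replicate 2, 110 without control replicate 2 and 383 without control replicate 1.

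The genes with the largest changes under the naming rule were of mixed kinds, and some changed steeply with age in controls. Over all controls of 10–12 hours and of 16–18 hours, the medians of Osi6 were 6145 and 20.3 CPM. For CG32237 they were 6.87 and 421 CPM, while for spartin they were 6.74 and 5.06 CPM. The part of age was not tested. Genes that fell most included 2 Bomanins, which encode short immune peptides of the Toll pathway. BomBc2 had 0.0668 and 0.200 CPM in scro RNAi embryos, against 3.96 and 2.72 CPM in controls, and BomS2 had 0.2504 and 0.600 CPM in scro RNAi embryos and 3.04 and 2.44 CPM in controls. Of 10 other knockdowns of the window with controls of other sets, 6 also had BomBc2 called lower and 5 had BomS2 called lower. CG32237 had 2.67 and 3.27 CPM in scro RNAi embryos and 19.8 and 15.2 CPM in controls (log2 fold change −2.56 ± 0.24 SE, adjusted p = 0.0376 by edgeR), and CG4229 had 21.3 and 4.57 CPM in scro RNAi embryos and 92.3 and 75.8 CPM in controls (−2.69). CG30054, with 0.2504 and 0.275 CPM in scro RNAi embryos and 2.05 and 1.99 CPM in controls, changed by −2.94. asRNA:CR46005, an antisense RNA, was called on the strength of 1 control, with 1.10 and 0.950 CPM in scro RNAi embryos and 1.54 and 12.99 CPM in controls. Another antisense RNA, asRNA:CR43767, had 0.0501 and 0.350 CPM in scro RNAi embryos and 1.76 and 2.61 CPM in controls (−3.52). It was also called lower in 6 of the 10 other knockdowns.

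Several of the largest increases rested on 1 library. Osi6, a member of the Osiris family of the late epidermis, had 381 and 3307 CPM in scro RNAi embryos, against 293 and 270 CPM in controls (log2 fold change 2.71 ± 0.92 SE, adjusted p = 0.0832 by edgeR), and its neighbour in the family Osi7 had 201 and 1722 CPM in scro RNAi embryos and 148 and 160 CPM in controls. CG15370, CG12540, CG14107 and CG12920 showed the same pattern, with scro RNAi replicate 2 at 12.4, 18.9, 60.5 and 31.5 CPM and the other 3 libraries at most at 1.47, 2.64, 9.83 and 4.17 CPM. Of 19 tested Osiris genes 2 were called higher, while among all genes 22.5% rose, so these calls do not set the family apart. Against these same controls Osi6 had log2 fold changes of 2.93 in onecut RNAi and 2.49 in ss RNAi embryos and CG15370 of 3.10 and 2.51, none of them called. The median of Osi6 over the controls of the window was 1291 CPM, above both controls of the set. dhd, a thioredoxin of the egg, had 68.6 and 23.6 CPM in scro RNAi embryos and 12.7 and 3.22 CPM in controls (2.53), but its log2 fold change was −2.40 against the mCherry controls of other sets. 28SrRNA-Psi:CR40596, a pseudogene of ribosomal RNA whose reads could come from its copies, had 3.02 and 3.57 CPM in scro RNAi embryos and 0.407 and 0.354 CPM in controls (3.10), and CG18789 and CR44906 changed by 2.48 and 2.47.

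At 16–18 hours no gene passed the test (0 of 11580, 0.0%), while 497 had an unadjusted p under 0.05 and DESeq2 called 50, of which 43 were lower and 7 higher. The smallest adjusted p was 0.330. The outcome rested on control replicate 1 of this window: without it 3180 genes were called, and without control replicate 2 there were 195. Neuronal genes had a median of 0.18 log2 units and cell cycle genes of 0.29, with 0 of 210 and 0 of 22 called. nAChRalpha1 had 43.5 and 26.0 CPM in scro RNAi embryos, against 29.4 and 34.0 CPM in controls, and nAChRalpha7 had 37.4 and 23.3 CPM in scro RNAi embryos and 29.7 and 28.8 CPM in controls. CycB had 1965 and 1715 CPM in scro RNAi embryos and 1910 and 767 CPM in controls. For all 3 genes the groups overlapped.

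The change at 16–18 hours was set against that at 12–14 hours by a test of the interaction in 1 fit of the 8 libraries. It differed for 1203 of 11955 genes (10.1%), of which 1022 had a higher log2 fold change in the later window (8.55%) and 181 a lower one (1.51%). Of 211 neuronal genes 103 had a higher change in the later window and none a lower one. The count was 27 of 33 for voltage-gated channels, 19 of 32 for Dpr and DIP genes and 5 of 10 for nicotinic receptors. For 22 cell cycle genes it was 0, with a median difference of −0.94. The interaction was not stable, with 0 genes called under RLE factors or at an adjusted p of 0.05, 2158 by DESeq2, and 0 to 3746 when a library was left out.

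**Figure D4:**
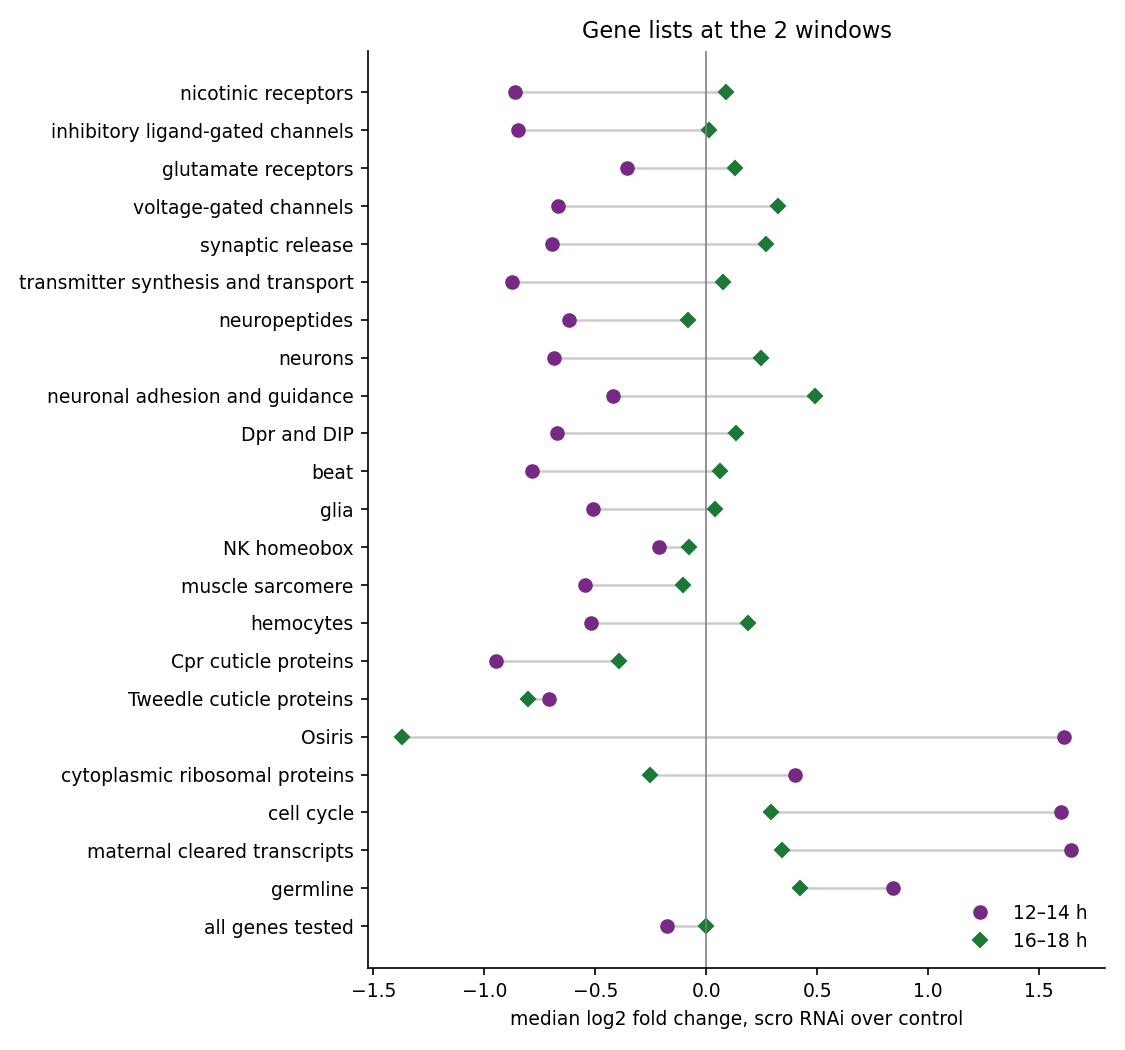
Median log2 fold change, scro RNAi over control, of each gene list at 12–14 hours and at 16–18 hours. Neuronal lists lie between −0.88 and −0.36 at 12–14 hours and between −0.08 and 0.49 at 16–18 hours, and cell cycle genes at 1.60 and 0.29.

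A small set of genes was low in scro RNAi embryos of both windows. It was found after seeing the data, with 1 fit of the 8 libraries in which the window was a covariate. Of 11955 genes 9 were lower (0.0753%) and 0 higher (0.0%), while 2601 had an unadjusted p under 0.05, and 8 of the 9 had groups that lay apart in both windows. Called in each of the 8 fits that left out 1 library were 5 of them: CG11131, spartin, CG7900, CG15530 and CG33346. Without control replicate 1 of 16–18 hours the fit called 1916 genes lower and 1922 higher. All 5 lie on chromosome 3, as do 5370 of the 11955 genes tested (44.9%).

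CG11131 (FBgn0037204, dm6 3L:22898744-22900262), a protein-coding gene, had 1.00 and 1.57 CPM in scro RNAi embryos, against 18.3 and 10.6 CPM in controls at 12–14 hours. In the later window it had 29.9 and 46.0 CPM in scro RNAi embryos and 398 and 698 CPM in controls. Over both windows its log2 fold change was −3.80 ± 0.31 SE (adjusted p = 0.00207 by edgeR). In each window both scro RNAi libraries were the lowest of the series, under 33 others that spanned 5.14 to 239 CPM at 12–14 hours and 130 others that spanned 72.9 to 1036 CPM at 16–18 hours. The log2 fold change was −3.50 at 12–14 hours and −3.85 at 16–18 hours.

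spartin (FBgn0037265, dm6 3R:4654800-4657985), the fly counterpart of a human gene of hereditary spastic paraplegia, had 0.367 and 0.775 CPM in scro RNAi embryos and 6.17 and 6.25 CPM in controls at 12–14 hours. Later, at 16–18 hours, it had 0.522 and 0.280 CPM in scro RNAi embryos, against 4.12 and 4.53 CPM in controls (−3.57 ± 0.30 SE over both windows, adjusted p = 0.00208 by edgeR). The 33 other libraries of 12–14 hours lay between 4.08 and 8.16 CPM. Of 130 others at 16–18 hours 2 reached as low as the higher scro RNAi library, both from the cross with the da-Gal4 driver and no hairpin that served as the control of E5. Transcripts of spartin in 0–1.5 hour embryos, which come from the mother, were at 10.9 and 10.8 CPM in scro RNAi embryos, 9.30 and 8.82 CPM in the controls of the set and 6.96 to 15.2 CPM in all 38 mCherry controls. At 0–1.5 hours scro RNAi embryos were thus within the range of the mCherry controls, and in both later windows below the range of the mCherry controls.

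CG7900 (FBgn0037548, dm6 3R:8094124-8105083) had 0.918 and 1.15 CPM in scro RNAi embryos and 6.86 and 6.12 CPM in controls at 12–14 hours. By 16–18 hours it had 1.07 and 1.23 CPM in scro RNAi embryos, against 10.3 and 7.75 CPM in controls (−2.94 ± 0.20 SE over both windows, adjusted p = 0.000685 by edgeR, the smallest of the fit). Among the other libraries the lowest at 12–14 hours was 3.92 CPM, and 1 of 130 at 16–18 hours, from caup RNAi, was below both scro RNAi libraries. CG15530 (FBgn0039752, dm6 3R:30177877-30180178) had 2.37 and 2.05 CPM in scro RNAi embryos and 8.49 and 7.39 CPM in controls at 12–14 hours, and 2.26 and 2.35 CPM in scro RNAi embryos against 6.17 and 6.76 CPM in controls at 16–18 hours (−1.78 ± 0.20 SE, adjusted p = 0.0114 by edgeR). At 16–18 hours 5 of 130 other libraries were lower.

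CG33346 (FBgn0053346) was near 0, with counts of 0 and 0 in scro RNAi embryos and 28 and 23 in controls at 12–14 hours, and of 1 and 6 in scro RNAi embryos and 110 and 159 in controls at 16–18 hours. It was low as well in the 2 other knockdowns that share these controls, with log2 fold changes of −3.79 for onecut and −4.08 for ss at 16–18 hours. At 12–14 hours these were −3.31 and −4.51, and CG33346 was not called in either knockdown or window. At 12–14 hours CG11131 had log2 fold changes of 0.45 for onecut RNAi and −0.33 for ss RNAi, spartin of 0.20 and −0.06, CG7900 of 0.34 and 0.07, and CG15530 of −0.41 and −0.69, and none was called.

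**Figure D5:**
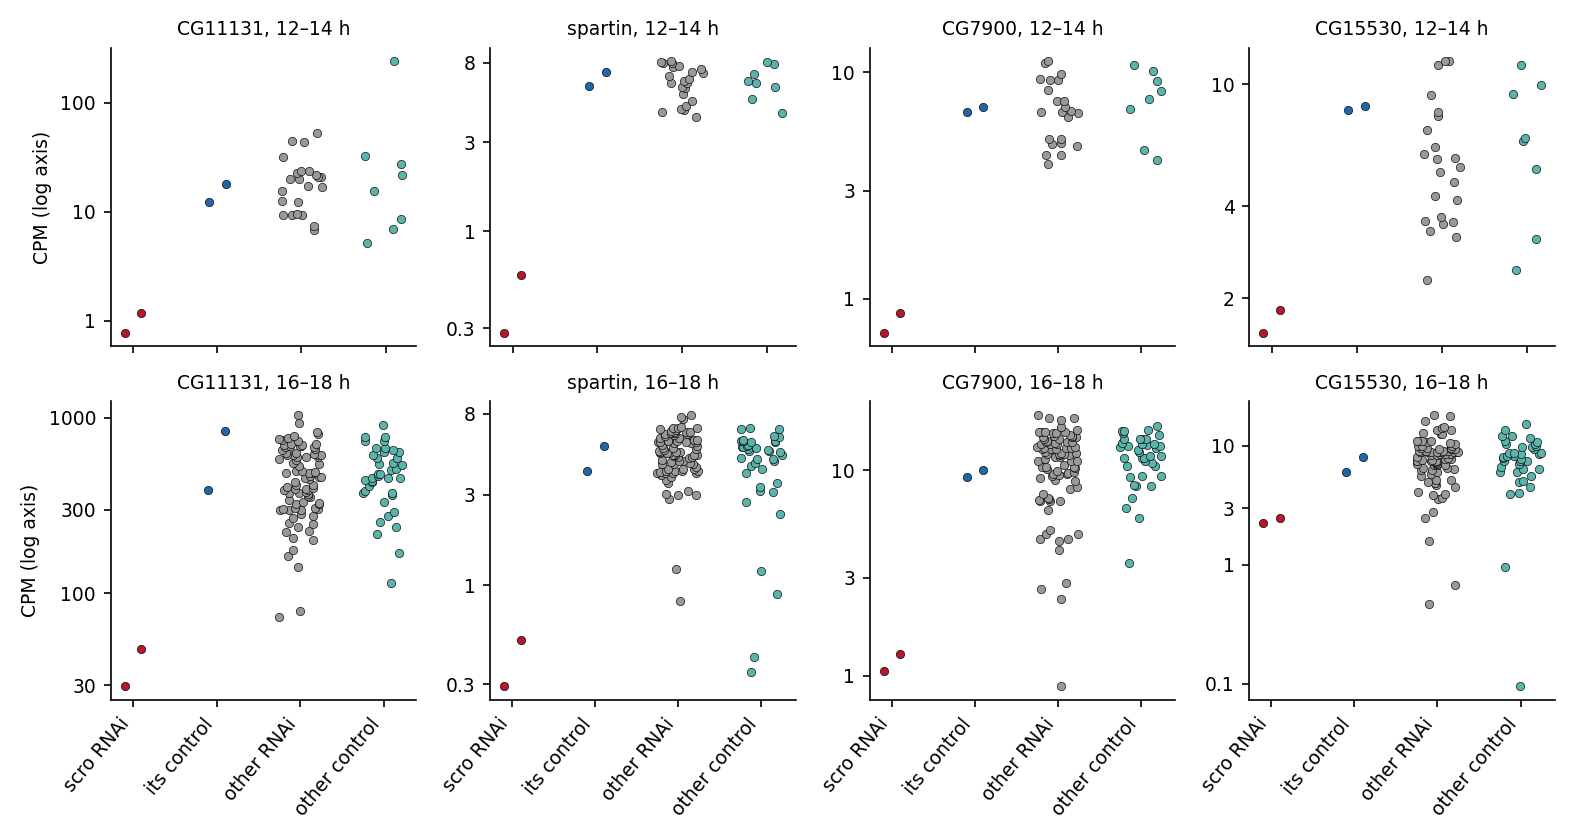
CPM on log axes of CG11131, spartin, CG7900 and CG15530 in scro RNAi embryos, the controls of their set, all other RNAi libraries and all other controls (mCherry hairpins and driver alone), at 12–14 hours above and 16–18 hours below, on the scale set over the series. The 2 scro RNAi points are below every other library at 12–14 hours for all 4 genes and at 16–18 hours for CG11131.

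Other knockdowns of the same windows give a measure of how common such changes were. Among the 12 other TFs with libraries at 12–14 hours, the most genes lower were 725 in CG10209 RNAi, with 1024 higher, and the most higher were 1797 in CG32006 RNAi, with 542 lower (4.73%), against 1437 lower and 2544 higher for scro. onecut and ss, whose controls are the same libraries, had 6 lower and 1 higher and 0 lower and 1 higher. The 10 TFs other than onecut and ss were compared with 4 control pairs, Ets65A and CG32006 with the same one, and Camta had 1 library. Over these 10 TFs, the median of the neuronal genes lay between −0.37 (Ets65A) and 0.44 (Sox102F), against −0.65 for scro, and the most neuronal genes lower was 14 (CG32006), against 116 for scro. The median of the cell cycle genes lay between −0.39 (Sox102F) and 1.27 (Ets65A), against 1.60 for scro. With onecut and ss RNAi libraries in place of the controls, 74 neuronal genes and 2 nicotinic receptors were called lower in scro RNAi embryos at 12–14 hours, beside 10.0% of all genes.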

How the data were processed

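RNA of whole embryos was sequenced from TruSeq stranded polyA libraries. The authors aligned reads to dm6 with STAR 2.7.3a and counted reads per gene with HTSeq 0.12.4, and the deposited counts (17612 gene symbols) were used unscaled. Per the submitters' processing notes DESeq2 1.24.0 was applied afterwards. Whether HTSeq used strand is not given in the sources used here, so antisense and overlapping genes are uncertain.

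The 2 scro RNAi libraries of a window were compared with the 2 controls in edgeR 4.0.16 (R 4.3.3), with TMM scaling, filterByExpr at a minimum count of 10, the quasi-likelihood test and Benjamini-Hochberg adjustment over all genes tested. Standard errors (SE) were derived as the absolute log2 fold change divided by the square root of the quasi-likelihood F statistic, and are approximate. In counts simulated from the libraries of 12–14 hours, 21 of 100 genes with a 2-fold and 92 of 100 with a 4-fold change were found, and 12 unchanged genes were called. For 16–18 hours these were 11, 79 and 7. The simulations used a common dispersion for all genes and changed few genes, equally up and down. In the data 35.2% of genes were called at 12–14 hours, so these figures are no error rate of that comparison. Reads carry no molecular identifiers.

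Members and the 47 gene lists were chosen with earlier results of these data known. Named are scro, list members and the 10 called genes with the largest increase and decrease at 12–14 hours, with at least 2 CPM in the higher group and groups that do not overlap, and the 5 with the largest difference between windows in each direction. The genes low in both windows were chosen after their values were seen. Symbols were matched to the dm6 annotation for 16981 genes and by synonym for 574. The hairpin comes from the study's list of lines. Figures were drawn with matplotlib 3.10.9 in Python 3.11.15.

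Alternatives were RLE factors, no filter, DESeq2 1.42.0, 1 fit of the 8 libraries that share the controls, all mCherry controls of the window, the replicate number as a block, each replicate left out and stricter thresholds. Library totals alone, mCherry controls of other sets, onecut and ss RNAi in place of the controls and the fit over both windows were added after the data had been seen.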

Additional observations from a re-analysis of the deposited data

Results flagged for a closer look

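The change in scro RNAi embryos differed between the windows, by edgeR's test of the interaction, for 1203 genes, of which 1022 had a higher log2 fold change at 16–18 hours than at 12–14 hours and 181 a lower one. These included 103 neuronal genes, 27 voltage-gated channels and 5 nicotinic receptors among them, each with the higher change in the later window.

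Among single genes, CG9988 differed by 6.40 and CG8664 by 6.16 on the log2 scale. CG9988 had counts of 0 and 0 in scro RNAi embryos and 42 and 10 in controls at 12–14 hours, and CG8664 had 0 and 0 in scro RNAi embryos and 17 and 9 in controls, so neither value is a bound on the difference. BomS1 differed by 3.71, with 0.150 and 0.600 CPM in scro RNAi embryos and 2.22 and 1.62 CPM in controls at 12–14 hours, and 4.28 and 5.81 CPM in scro RNAi embryos and 1.62 and 3.24 CPM in controls at 16–18 hours. CR43186 differed by 3.60 at levels under 1 CPM at 12–14 hours. sif, a regulator of Rac signalling, differed by 3.56, with 6.72 and 8.33 CPM in scro RNAi embryos and 2.27 and 0.301 CPM in controls at 16–18 hours.

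In the other direction, CG11300 differed by −6.89, with 0.194 and 0.572 CPM in scro RNAi embryos and 22.1 and 11.6 CPM in controls at 16–18 hours, and it did not pass the filter on low counts at 12–14 hours. CG13216 differed by −4.92, with scro RNAi replicate 2 at 18.3 CPM at 12–14 hours and the other scro RNAi library at 3.72 CPM. Jon74E, a digestive protease, differed by −2.78 and GstD4, a glutathione transferase, by −2.71, and neither passed the filter on low counts at 12–14 hours. The adjusted p of these 10 genes lay between 0.0897 and 0.0993 by edgeR. The pseudogene 28SrRNA-Psi:CR40596 differed by −2.69. None of these genes was called in the test of the 16–18 hour window alone.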

How the results depend on the processing

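Calls at 12–14 hours numbered 3981. They were 6792 with library totals alone, 2629 against all mCherry controls of the window, 2341 against those of other sets, 2475 at an adjusted p of 0.05, 2110 at an absolute log2 fold change of 1 and 1918 to 3229 without 1 library. The 1437 genes lower were 460 with RLE factors, 4857 with totals alone, 688 by DESeq2, 928 in 1 fit of the 8 libraries that share the controls, 415 against all mCherry controls, 381 against other sets, 455 at an adjusted p of 0.05, 346 at a log2 fold change of 1 and 151 to 1015 without 1 library. For neuronal genes lower (116) the counts in the same settings were 46, 177 and 74 (RLE factors, totals, DESeq2), 41 and 31 (all and other mCherry controls), 74 against onecut and ss RNAi, 56 and 29 at the stricter thresholds and 2 to 88 without 1 library. For nicotinic receptors lower (8) they were 3 with RLE factors, 4 and 1 against all and other mCherry controls, 2 against onecut and ss RNAi, 5 and 5 at the stricter thresholds and 0 to 6 without 1 library. Genes rising with age that were lower (917) numbered 313, 1865 and 485 (RLE factors, totals, DESeq2), 544 in the fit of 8 libraries, 129 and 98 (all and other mCherry controls), 492 against onecut and ss RNAi, 350 and 275 at the stricter thresholds and 101 to 841 without 1 library. The 30 cell cycle, maternal and germline genes higher were 15 against all mCherry controls and 11 against other sets. No other alternative moved that count by over 1.5 times.

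At 16–18 hours (0 calls) there were 7 without a filter, 50 by DESeq2, 17 in the fit of 8 libraries, 35 and 34 against all and other mCherry controls, 1657 against onecut and ss RNAi and 0 to 3180 without 1 library. The difference between windows (1203) had 0 calls with RLE factors, 775 without a filter, 2158 by DESeq2, 0 at an adjusted p of 0.05 and 0 to 3746 without 1 library. Over both windows the 9 genes lower were 5 to 1916 and the 0 higher 0 to 1922 without 1 library. The log2 fold change of scro at 12–14 hours (−0.14) was above 0 with RLE factors (0.0026), by DESeq2 (0.0001) and against onecut and ss RNAi (0.0028), and lay between −0.53 and 0.48 without 1 library. At 16–18 hours it stayed between −0.84 and −0.12.

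Of named genes not called, the sign changed for repo with RLE factors (0.022), by DESeq2 (0.021) and without 1 library (−0.16 to 0.23), and for vnd (−0.23 to 0.18) and nAChRbeta3 (−0.65 to 0.14) without 1 library. Of 111 named genes called, 3 took the opposite sign against all and against other mCherry controls, namely osk (−0.91 and −1.19), yl (−1.54 and −1.84) and dhd (−2.09 and −2.40). CG15370 (−0.039), CG12540 (−0.0091) and CG12920 (−0.081) did so against onecut and ss RNAi. The cause of these changes was not tested.

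With the replicate number as a block 4394 genes were called at 12–14 hours, 15 at 16–18 hours and 2736 for the difference between windows, and scro changed by −0.19 and −0.52. No title states that libraries of the same number were handled together, so the number was not taken to pair them. Deviations of same-numbered libraries correlated at −0.033 at 12–14 hours and 0.25 at 16–18 hours, and 2 pairs cannot settle whether they are paired.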

Other observations

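The 12 genes called lower at 12–14 hours under each of the 13 other settings, found after the values were seen, held no member of the neuronal lists. Besides BomBc2, BomS2, CG30054 and 4 of the genes low in both windows, they were CG45273, Crys, Sid, CG12523 and CG8861. Sid, a nuclease of the stress response, had 1.65 and 1.52 CPM in scro RNAi embryos and 6.543 and 8.08 CPM in controls (log2 fold change −2.20 ± 0.26 SE). CG12523 had 27.8 and 23.2 CPM in scro RNAi embryos and 86.8 and 89.1 CPM in controls (−1.79 ± 0.20 SE). For both the replicates of a group lay close together.

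Of the 1237 genes higher under each setting, 10 belong to the cell cycle, maternal and germline lists. This compares with 30 members of these lists called higher, and with 2544 genes called higher in all. A few genes outside the lists were picked by hand after their values were seen, and stand for no class of genes. pav, which acts in cytokinesis, had 89.8 and 63.0 CPM in scro RNAi embryos and 25.2 and 11.2 CPM in controls (2.07 ± 0.42 SE). tum, its partner, had 735 and 620 CPM in scro RNAi embryos and 237 and 111 CPM in controls (1.96 ± 0.39 SE), and Incenp had 374 and 326 CPM in scro RNAi embryos and 125 and 56.6 CPM in controls (1.94 ± 0.40 SE). Caf1-180, which loads histones on new DNA, had 356 and 349 CPM in scro RNAi embryos and 122 and 64.7 CPM in controls (1.92 ± 0.34 SE). In each of these genes control replicate 2 was the lowest library, as it was for CycB.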
